A study of Homo sapiens with 12 samples.

Results

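SCN2A, RIMS2 and SNAP91 are 3 genes of neuronal excitability and vesicle traffic, and they were selected because their counts rose with carmofur in the cells labelled U251T. They are 3 of the 60107 gene identifiers in the count table, and their symbols were matched to Ensembl identifiers. Because the selection used the U251T libraries, the levels of the 3 genes in those libraries are given as a description and without a test. Their levels in the other line, U251P, were not used to choose them.

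RNA was sequenced from 12 libraries labelled as human cells of U251, an established glioblastoma line. The labels give 2 lines, U251P and U251T, without spelling out what the last letters stand for. Each line has 3 libraries from cells given DMSO as the vehicle and 3 from cells given carmofur, an inhibitor of acid ceramidase. Cells of all 4 groups were deprived of serum for 16 h and then kept for 24 h in full medium. The labels place DMSO or carmofur in the final 24 h, whereas the description of the experiment in the paper has them present in the serum-free hours too. The labels do not say what separates the replicates of a group, and the methods of the study state biological triplicates for its experiments in general.

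SCN2A encodes the alpha subunit of the voltage-gated sodium channel Nav1.2, which carries the inward current of the action potential and is concentrated at the axon initial segment. RIMS2 encodes a scaffold of the presynaptic active zone that holds calcium channels and primed vesicles together at the release site. SNAP91, also called AP180, is the neuronal clathrin assembly protein that helps to retrieve vesicle membrane after release, and PICALM is its relative in other tissues. In most cells that are not neurons such genes are kept low, in part by the repressor REST and its corepressors.

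The U251T libraries stood apart from the U251P libraries before any treatment was considered. Total counts were 383633 to 2817379 in U251T and 3295045 to 6350873 in U251P. Annotated pseudogenes took 10.8% to 12.4% of the counts in U251T and 0.272% to 0.307% in U251P. B2M, a component of MHC class I on nearly all human cells, had 1 to 7 counts in the U251T libraries and 5655 to 12332 in U251P. Of the glioma stem cell genes, SOX2 had 0 to 1 counts in U251T and 322 to 960 in U251P, and NES had 0 to 2 and 1512 to 2636. EGFR had 3 to 7 counts in U251T and 242 to 539 in U251P. GAPDH, a glycolytic enzyme of every cell, had 78 to 601 counts in U251T and 12357 to 21565 in U251P, and mitochondrial rRNA took 0.336% to 0.717% and 13.7% to 19.0% of the counts. These levels of B2M, GAPDH, SOX2, NES and EGFR go against the label of a human glioblastoma line for U251T. Other markers went the other way. Of 11 astrocyte and glioma markers, 7 could be tested between the lines with vehicle. By edgeR (adjusted p under 0.05) 2 were higher in U251T, GFAP and VIM, and 5 were lower, SOX2 and NES included. GFAP had 102, 154 and 47 counts in U251T with vehicle and 0, 1 and 0 in U251P. What these cells are was not tested, so the values below are those of the libraries labelled U251T. The part of these differences in the levels of the 3 genes was not tested, and every library in which the 3 genes had more than 2 counts was a U251T library. Fewer cells expressing a gene and less RNA per cell cannot be told apart in such bulk samples.

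Promoter sequence is shown for SCN2A and SNAP91, and none was used here for RIMS2. For each gene 1 annotated start was chosen, and the 2 stretches shown differ in base composition. The sequences are from RefSeq on GRCh38.p14, 250 bases ending just before an annotated start, 5′ to 3′ on the strand of the gene, with each CG dinucleotide in capitals.
SCN2A, chr2:165239164-165239413, plus strand: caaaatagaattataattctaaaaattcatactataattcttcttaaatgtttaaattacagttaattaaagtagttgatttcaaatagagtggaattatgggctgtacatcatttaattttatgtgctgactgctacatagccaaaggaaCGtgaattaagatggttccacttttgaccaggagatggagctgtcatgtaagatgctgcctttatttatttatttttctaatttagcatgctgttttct
SNAP91, chr6:83709394-83709643, minus strand: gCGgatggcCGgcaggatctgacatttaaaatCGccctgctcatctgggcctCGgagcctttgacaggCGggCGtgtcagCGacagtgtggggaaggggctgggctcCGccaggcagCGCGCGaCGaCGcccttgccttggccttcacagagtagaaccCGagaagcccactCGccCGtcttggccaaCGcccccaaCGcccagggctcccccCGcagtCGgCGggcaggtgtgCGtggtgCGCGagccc
In windows of 300 bases, which add the first 50 bases after the start, the SCN2A window had 31.7% G and C and 2 CG, and the SNAP91 window had 71.3% and 32. Among 35116 such windows the median was 58.7% with 14 CG. A lower G and C content than that of SCN2A was found in 1.74% of the windows, and 82.7% were lower than SNAP91. The other SCN2A start with a window had 33.3% G and C and 1 CG. Of the other 3 SNAP91 starts with a window, 2 had 74.7% and 77.7% with 37 and 42 CG. The third had 43.3% with 2 CG, the CG count of the SCN2A window shown. In the GENCODE annotation used for the gene positions below, SCN2A begins at 165194993 and SNAP91, on the minus strand, at 83709691. No window held either of these starts, so nothing is read about them.

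Motifs were searched on both strands of these 6 windows. They were the TATA box TATAAA, the 2 parts of the REST site TTCAGCACC and GGACAG, the E-box CACGTG and the cAMP response element TGACGTCA. The only matches were 2 overlapping copies of TATAAA, 1 on each strand, in the other SCN2A window, 247 and 249 bases before its start. TATAAA occurs in 11.5% of all windows, TTCAGCACC in 0.376%, GGACAG in 20.5%, CACGTG in 7.26% and TGACGTCA in 1.85%. A missing match says only that these letters are not in these windows.

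SCN2A (ENSG00000136531) lies on chromosome 2 at 165194993 to 165392310 on the plus strand in GENCODE release 29 (GRCh38). In U251T with vehicle it had 115, 83 and 84 counts in replicates 1, 2 and 3, which are 87.3, 30.8 and 145 CPM (normalized counts scaled to a common library size). With carmofur it had 470, 378 and 215 counts, or 476, 359 and 553 CPM. The lowest carmofur library was above the highest vehicle library. Over the groups the level was 87.7 ± 57.1 CPM with vehicle and 463 ± 98.0 CPM with carmofur (SD, n = 3 each). The fitted log2 fold change was 2.57 (standard error 0.338), a fold of 5.96.

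RIMS2 (ENSG00000176406) lies on chromosome 8 at 103500748 to 104256094 on the plus strand. Its counts in U251T with vehicle were 109, 127 and 49, or 82.7, 47.1 and 84.5 CPM in replicates 1, 2 and 3. With carmofur they were 295, 249 and 118, or 299, 236 and 304 CPM. The groups did not overlap, and replicates lay closer together than those of SCN2A and SNAP91. The means were 71.5 ± 21.1 CPM with vehicle and 279.6 ± 37.5 CPM with carmofur (SD, n = 3 each). The log2 fold change was 2.03 (standard error 0.210), a fold of 4.09.

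SNAP91 (ENSG00000065609) lies on chromosome 6 at 83552880 to 83709691 on the minus strand, and it was the least abundant of the 3 genes. With vehicle it had 11, 7 and 7 counts in U251T, or 8.35, 2.60 and 12.1 CPM in replicates 1, 2 and 3. With carmofur it had 77, 46 and 23 counts, or 78.0, 43.7 and 59.2 CPM. Every carmofur library was above every vehicle library, and the means were 7.67 ± 4.78 CPM and 60.3 ± 17.2 CPM (SD, n = 3 each). The log2 fold change was 3.33 (standard error 0.418), which rests on 25 vehicle counts in all. Without vehicle replicate 2, which had the lowest level, the fold was 6.15 in place of 10.02. SNAP91 reached the level of the filter on low counts in 1 of the 3 vehicle libraries and in every carmofur library, so that it entered the fit through the group in which it was high.

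**Figure D1:**
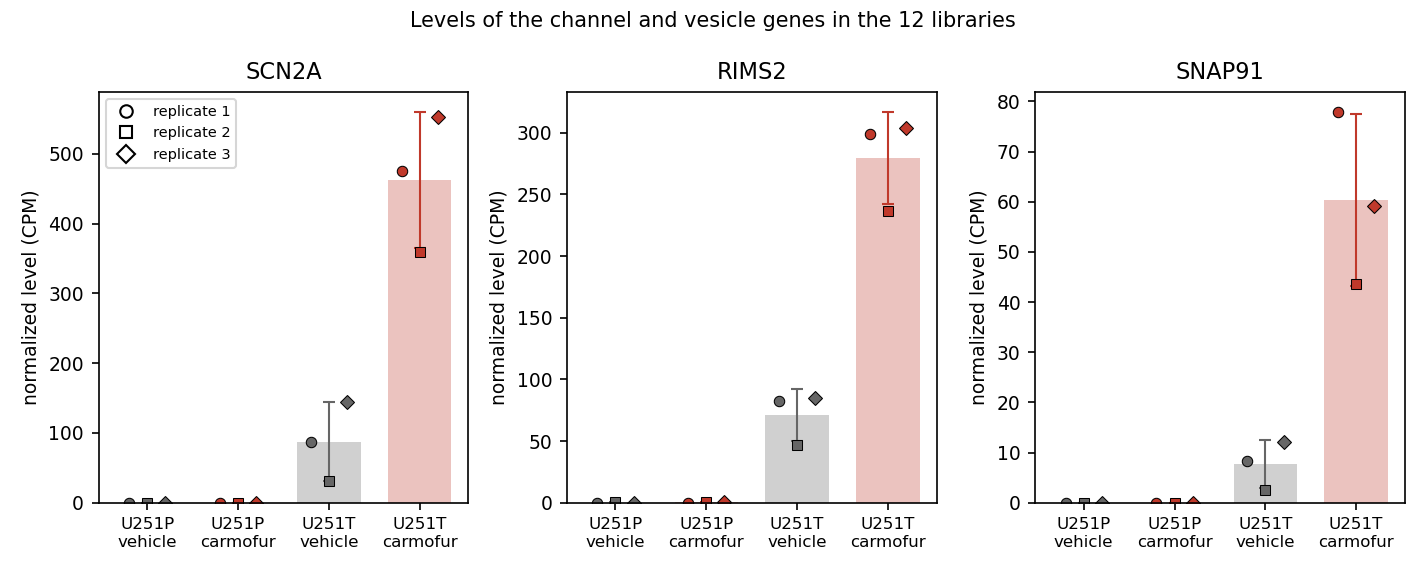
Normalized level in CPM (vertical axis, a separate scale for each gene) of SCN2A, RIMS2 and SNAP91 in the 4 groups; points are libraries, shaped by replicate number, bars are group means and error bars the SD of 3 libraries. In U251T the carmofur libraries sit above the vehicle libraries for each gene, with 359 to 553 CPM against 30.8 to 145 for SCN2A, and the U251P libraries sit at or near 0.

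Among the 7204 genes that could be tested in U251T, 8.88% were called higher with carmofur and 8.2% lower, 17.1% in all, at an edgeR adjusted p-value under 0.05. In 16.1% all carmofur libraries were above all vehicle libraries, and in 16.7% all were below. The 3 genes were chosen for their rise, so nothing is read from their place against these shares. Ordered by log2 fold change, SNAP91 was number 4, SCN2A number 14 and RIMS2 number 47 of 7204.

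The order of the replicates was the same for SCN2A and RIMS2 with carmofur and differed for SNAP91, which was highest in replicate 1. Vehicle replicate 2, the deepest U251T library with 2817379 counts, had the lowest level of each gene in its group. Carmofur replicate 2 was also the lowest of its group for each gene. Replicate 3, which was the shallowest library of both groups, had the highest level of SCN2A and of RIMS2 in both. In vehicle the highest level was 4.71 times the lowest for SCN2A, 4.65 times for SNAP91 and 1.79 times for RIMS2. With carmofur these ratios were 1.54, 1.79 and 1.28. Whether depth has a part in this order was not tested.

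QuantSeq counts tags at the 3′ end of transcripts, so counts do not scale with transcript length. Levels of different genes were therefore set side by side in CPM. Whether reads were assigned alike to different genes in the U251T libraries was not tested. In each carmofur library of U251T the order was SCN2A, RIMS2, SNAP91. In vehicle SNAP91 was again lowest in every library, but SCN2A and RIMS2 changed places. SCN2A was above RIMS2 in replicates 1 and 3 and below it in replicate 2, and their group means differed by less than the SD of SCN2A.

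In U251P the 3 genes were at or near the limit of detection, with and without carmofur. SCN2A and SNAP91 had 0 counts in all 6 libraries. RIMS2 had 0, 1 and 0 counts in the vehicle libraries and 0, 2 and 2 in the carmofur libraries. A count of 0 in a group allows up to 3 counts, which is 0.220 CPM over the 13623194 vehicle counts and 0.182 CPM over the 16448552 carmofur counts, for counting error alone. None of the 3 genes passed the filter on low counts within U251P, so no test of carmofur was made there with that filter. Values of RIMS2 from 2 other fits, which rest on very few counts, are given with the processing alternatives. In that line 0 of 11426 genes tested (0.0%) had an adjusted p-value under 0.05 by the quasi-likelihood test of edgeR, 402 had an unadjusted p-value under 0.05, and DESeq2 called 0.

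Between the lines, SCN2A was at least 273-fold higher in U251T than in U251P with vehicle and at least 2397-fold higher with carmofur, as shares of total counts. SNAP91 was at least 24.2-fold and at least 329-fold higher. For these bounds the U251P group was set to 3 counts. RIMS2 had a ratio of 829 (95% exact interval 148 to 32852) with vehicle, on 1 count in U251P, and of 1119 (435 to 4121) with carmofur, on 4 counts. With vehicle, 86.9% of 12047 genes tested were called different between the lines by edgeR, 39.3% higher in U251T and 47.6% lower, and the median log2 fold change over all of them was -0.33. The U251T libraries took part in the choice of the genes, so this comparison is a description.

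The 3 genes are long. They span 197 kb (SCN2A), 755 kb (RIMS2) and 157 kb (SNAP91), which is longer than 91.6%, 99.5% and 88.1% of the genes tested in U251T. The median span was 34.6 kb over the 7189 tested genes with a position, 64.4 kb over the 639 that were called higher and 31.8 kb over the 589 that were called lower. These medians are given as a description.

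Reads at these loci can be shared with other annotated genes, and no source says if strand was used in counting. SCN3A, a sodium channel gene that overlaps SCN2A on the opposite strand, had 0 to 7 counts in the U251T libraries. The processed pseudogene AC090686.1 (chromosome 8, 103768281 to 103769029) overlaps an annotated RIMS2 exon on the same strand. It had 62.2, 62.3 and 58.7 CPM in U251T with vehicle and 59.7, 56.0 and 51.5 CPM with carmofur. All 6 values lay between 51.5 and 62.3 CPM, while RIMS2 was at 47.1 to 304 CPM in the same libraries. The pseudogene had 0 to 1 counts in U251P. No annotated gene overlaps SNAP91.

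The closest relatives of the 3 genes were mostly near 0 in U251T. SCN1A, the channel gene next to SCN2A in the same cluster, had 2, 0 and 0 counts in the vehicle libraries and 5, 1 and 4 in the carmofur libraries. SCN9A had 1, 0 and 2 counts and then 7, 3 and 3, while SCN4A, SCN8A, SCN10A and SCN11A had 0 to 2. In U251P the only alpha subunit that could be tested was SCN9A, with 15 to 24 counts and a log2 fold change of -0.22 (adjusted p = 0.999 by edgeR). SCN2A held most of the alpha subunit counts of U251T and none of those of U251P.

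RIMS1, the closest relative of RIMS2, had 0, 3 and 0 counts in the vehicle libraries of U251T and 0 in each carmofur library. RIMS3 had 2, 17 and 3 and then 1, 5 and 4 counts, and RIMS4 had 0 throughout. PICALM was abundant in U251T, at 387 ± 12.2 CPM with vehicle and 452 ± 28.3 CPM with carmofur (SD, n = 3 each). Its log2 fold change was 0.23 (standard error 0.127, adjusted p = 0.250 by edgeR), beside 3.33 for SNAP91. In the carmofur libraries of U251T SNAP91 was thus still below PICALM, and in U251P PICALM alone was counted, at 47.2 ± 4.85 CPM with vehicle.

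The genes that work with the 3 were taken from 6 lists that hold 200 other genes, on sodium channels and partners, potassium and calcium channels, the active zone, SNAREs and vesicle proteins, clathrin endocytosis, and postsynaptic receptors and adhesion. In U251T 44 of the 200 had no count and 66 could be tested. By the quasi-likelihood test of edgeR with Benjamini-Hochberg adjustment over all 7204 genes, 13 of the 66 were higher with carmofur (19.7%, beside 8.88% of all genes tested) and 1 was lower. The median log2 fold change was 0.33 over the 66 and 0.01 over all genes tested. The lists were chosen with earlier results of these data known, so this share and those of the single lists below are a description. Of the 66, 18 were under the filter level in at least 1 vehicle library, and 4 of these were among the 13, KCNMA1, KCNN3 and SHANK2 included.

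Of the partners of SCN2A, 5 of 20 could be tested and 3 were higher (60.0%, beside 8.88% of all genes tested). ANK3 encodes ankyrin-G, which anchors sodium channels at the axon initial segment. It had 194, 278 and 82 counts in the vehicle libraries and 284, 278 and 154 in the carmofur libraries, or 131 ± 24.0 and 316 ± 70.7 CPM (SD, n = 3 each). Its log2 fold change was 1.28 (edgeR adjusted p = 8.81e-05). ANK2, its relative, had 0.96 (edgeR adjusted p = 0.0275), and its call was lost without carmofur replicate 1 (edgeR adjusted p up to 0.148 over all alternatives) and without vehicle replicate 2. FGF13, which binds the channel from inside, and the ubiquitin ligase NEDD4L did not pass, with log2 fold changes of 0.30 and -0.29.

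Of the 200 genes, 89 could be tested in U251P, 0 passed, 4 had an unadjusted p-value under 0.05, and DESeq2 called 0. All carmofur libraries were above all vehicle libraries in 5 of the 89 and below in 3, beside 3.96% and 4.33% of all genes tested in U251P.

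Of the other ion channels, 6 of 39 could be tested in U251T and 3 were higher, where 8.88% of all genes tested were higher. Of the 6 channels, 5 were under the filter level in at least 1 vehicle library, the 3 higher ones included. KCNMA1 reached that level in 1 of the 3 vehicle libraries and KCNN3 in 2, and both reached it in every carmofur library. KCNN3, a small-conductance calcium-activated potassium channel, had 13, 10 and 7 counts in the vehicle libraries and 49, 31 and 14 in the carmofur libraries. Its level was 8.55 ± 4.34 CPM and then 38.4 ± 10.3 CPM (SD, n = 3 each), and the log2 fold change was 2.42 (edgeR adjusted p = 0.000508), beside 2.57 for SCN2A. KCNMA1, the large-conductance channel, had 1.36 (edgeR adjusted p = 0.0198), and this call was lost without carmofur replicate 1, carmofur replicate 3 or vehicle replicate 1.

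Of the active zone genes that work beside RIMS2, 9 of 28 could be tested and 2 were higher (22.2%, beside 8.88% of all genes tested). PCLO, which encodes the scaffold Piccolo, had 43, 67 and 24 counts in the vehicle libraries and 85, 55 and 56 in the carmofur libraries. The fitted difference was 1.51 on the log2 scale (standard error 0.314), and the edgeR adjusted p was 0.00255. ERC1, a scaffold that binds RIM proteins, had 0.56 (edgeR adjusted p = 0.0184). Its call was lost without carmofur replicate 2 or 3 and without vehicle replicate 1 or 3. It was also lost without the filter on low counts and with all 12 libraries in 1 fit (edgeR adjusted p up to 0.121 over all alternatives). BSN, the relative of PCLO, had 14, 1 and 3 and then 17, 14 and 9 counts and did not pass (edgeR adjusted p = 0.0617). BSN was named after its values were seen.

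Of the SNARE and vesicle genes, 9 of 38 could be tested in U251T and 0 passed by edgeR. Without adjustment 2 of them had p under 0.05, DESeq2 called 0, and the median log2 fold change was 0.08. In 2 of the 9 all carmofur libraries were above all vehicle libraries and in 1 all were below, beside 16.1% and 16.7% of all genes tested. Core genes of vesicle release were uneven in level. VAMP2 had 36, 69 and 10 counts in the vehicle libraries and 16, 29 and 11 in the carmofur libraries. STX1A had 54, 61 and 22 and then 31, 32 and 27 counts, and both were named after their values were seen. Scaled for depth, neither gene fell clearly. VAMP2 averaged 23.4 CPM with vehicle and 24.0 with carmofur (log2 difference -0.06, edgeR adjusted p = 0.928). STX1A averaged 33.9 and then 43.8 CPM (log2 difference 0.30, edgeR adjusted p = 0.614). Few or no counts were found for others. SNAP25 had 3, 0 and 3 counts in the vehicle libraries and 10, 8 and 0 in the carmofur libraries, and SYT1 had 1 to 5 over the 6 libraries. SYP and SYN2, also named after their values were seen, had 0. The vesicle genes of this list and SNAP91 thus had different values in the same libraries, and the difference between them was not tested.

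Of the clathrin genes, 28 of 37 could be tested, 2 were higher (7.14%, beside 8.88% of all genes tested) and 1 was lower. The median of the 28 log2 fold changes was 0.28. DAB2, a cargo adaptor of clathrin-coated pits, had 1.54 (edgeR adjusted p = 0.00109), and STON2, an adaptor that sorts synaptotagmin, had 1.23 (edgeR adjusted p = 0.00319). HSPA8, the chaperone that uncoats clathrin vesicles, had -0.53 (edgeR adjusted p = 0.00956). Of the postsynaptic genes, 9 of 38 could be tested and 3 were higher (33.3%, beside 8.88% of all genes tested). They were the scaffold SHANK2 (1.92, edgeR adjusted p = 0.00228), the adhesion protein NLGN2 (1.25, edgeR adjusted p = 0.0103) and the scaffold HOMER1 (1.08, edgeR adjusted p = 0.0270). Without carmofur replicate 1 the count of postsynaptic genes was 1. The call of NLGN2 was lost in that fit and without carmofur replicate 3, and that of HOMER1 was lost in that fit, without carmofur replicate 2, without vehicle replicate 2 and with DESeq2, which called 2 of the 3 genes.

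**Figure D2:**
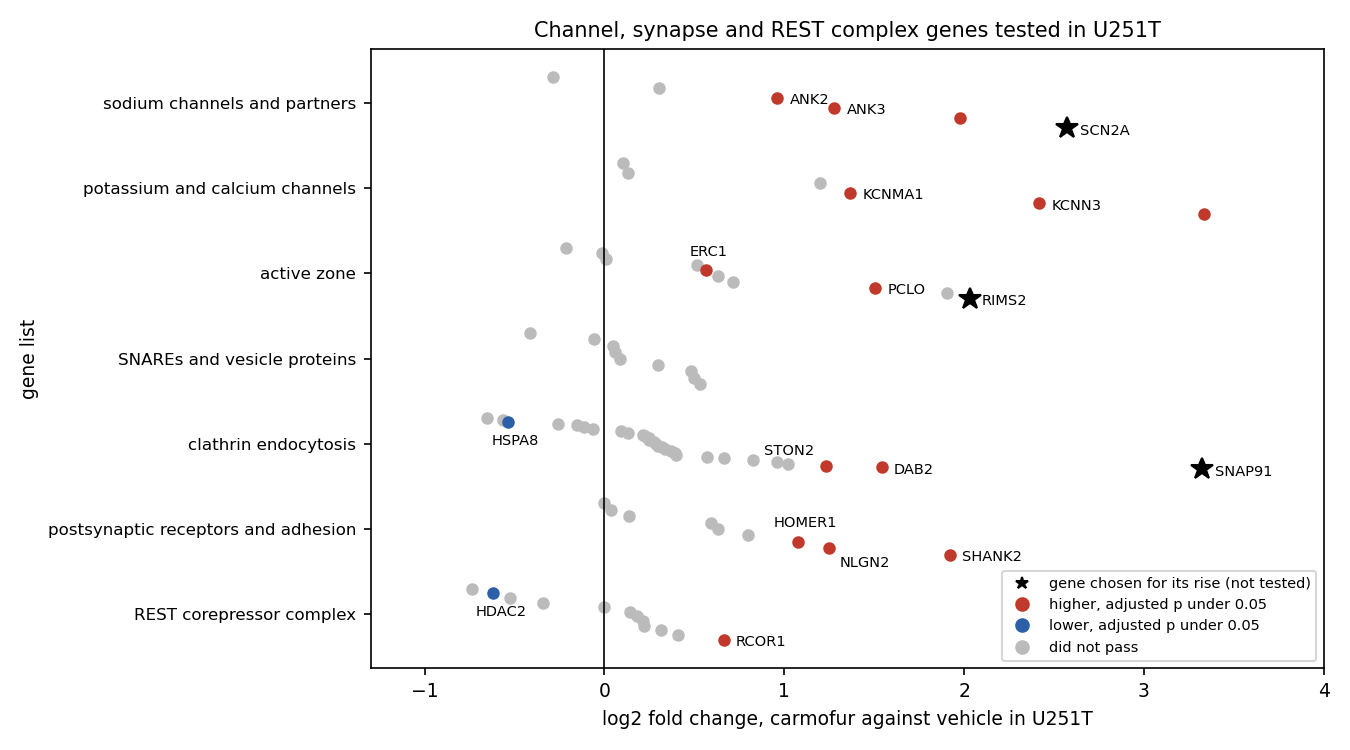
Log2 fold change of carmofur against vehicle in U251T (horizontal axis) for each tested gene of the 7 lists (vertical axis, 1 row of points per list); stars are SCN2A, RIMS2 and SNAP91, red points passed the test as higher, blue points as lower and grey points did not pass. Coloured points are named where the text describes the gene. The stars lie at 2.57, 2.03 and 3.33, and the SNARE and vesicle proteins hold no coloured point.

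REST, which represses sodium channel and synapse genes outside neurons, was measured at 27.0 ± 7.18 CPM in U251T with vehicle and 30.4 ± 2.68 CPM with carmofur (SD, n = 3 each). Its log2 fold change was 0.21 (standard error 0.290, edgeR adjusted p = 0.688). In U251P with vehicle REST was at 86.7 ± 2.03 CPM (SD, n = 3). The log2 fold change of U251T against U251P was -1.77 (edgeR adjusted p = 1.75e-09), where 86.9% of genes were called different. A part of REST in the levels of the 3 genes was not tested. Of the 17 genes of the REST corepressor complex, 12 could be tested within U251T. With carmofur 1 was higher (8.33%) and 1 lower, shares near the 8.88% and 8.2% of all genes tested. RCOR1, the scaffold CoREST, was higher with 0.66 (edgeR adjusted p = 0.00248). The deacetylase HDAC2 was lower with -0.62 (edgeR adjusted p = 0.00863), a call lost without carmofur replicate 3.

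The defining markers of neurons were mostly at or near 0 in the libraries in which the 3 genes were counted. Of 19 neuron markers, 7 had no count in U251T with vehicle and 8 had none with carmofur. NEFM, INA, ELAVL2 and ELAVL4 had 0 counts in all 6 libraries and TUBB3 had 0 to 1. STMN2 had 2, 5 and 0 counts in the vehicle libraries and 0 in each carmofur library. RBFOX3, the nuclear antigen NeuN, had 11, 2 and 0 counts in the vehicle libraries and 19, 9 and 7 in the carmofur libraries, and it was under the filter. ELAVL3, a neuronal RNA-binding protein, was also under the filter, with 0 counts in each vehicle library and 6, 5 and 3 in the carmofur libraries. NEFH, a neurofilament gene under the filter, went the other way, with 1, 10 and 1 counts and then 0 in each carmofur library. The groups did not overlap for these 2 genes, as for 16.1% (higher) and 16.7% (lower) of all genes tested. MAP2, a microtubule protein of dendrites, had 13, 1 and 6 and then 16, 6 and 10 counts, a log2 fold change of 1.43 that did not pass (edgeR adjusted p = 0.222). The summed level of the 19 markers was 507 to 589 CPM with vehicle and 674 to 885 CPM with carmofur. The adhesion molecule NCAM1 made up most of it, at 503 ± 51.9 and 668 ± 158 CPM (SD, n = 3 each), and its log2 fold change of 0.42 did not pass (edgeR adjusted p = 0.0751). The 3 markers that could be tested were MAP2, NCAM1 and ENO2, and 0 of them passed by edgeR, 1 had an unadjusted p-value under 0.05 and DESeq2 called 0. In U251P, where the 3 genes were near 0, the neuron markers summed to 1292 to 1365 CPM, mostly from other genes than in U251T. With vehicle the neurofilament gene NEFL was at 529 ± 89.9 CPM there, UCHL1 at 648 ± 59.1 CPM and NCAM1 at 27.0 ± 7.56 CPM (SD, n = 3 each).

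The genes whose profile was most like that of each of the 3 were found over the 12 libraries, as the smallest root mean square difference of log2 CPM centred on the mean of the gene, among 13069 genes. For SCN2A they were LXN (0.45), RIMS2 (0.57) and the mechanosensitive channel PIEZO2 (0.68). For RIMS2 they were LXN (0.29), the lipid droplet coat protein PLIN2 (0.35) and the sulfatase SULF1 (0.43), and SCN2A was number 10. For SNAP91 they were the receptor NOTCH3 (0.50), the lysosomal protease CTSV (0.50) and RETREG1 (0.55), a receptor for autophagy of the endoplasmic reticulum. SNAP91 differed from SCN2A by 1.58 and from RIMS2 by 1.31 on the same measure. These libraries share the line difference and the contrast that chose the 3 genes, so likeness is a description.

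LXN, which encodes the carboxypeptidase inhibitor latexin, had 0 counts in all U251P libraries. In U251T it had 114, 127 and 50 counts in the vehicle libraries and 286, 211 and 111 in the carmofur libraries, or 73.3 ± 22.7 and 259 ± 50.5 CPM (SD, n = 3 each), close to the 71.5 and 279.6 CPM of RIMS2. NOTCH3, most like SNAP91, had 7.51 ± 1.16 CPM with vehicle and 53.6 ± 16.5 CPM with carmofur in U251T, and 0 to 3 counts in U251P.

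**Figure D3:**
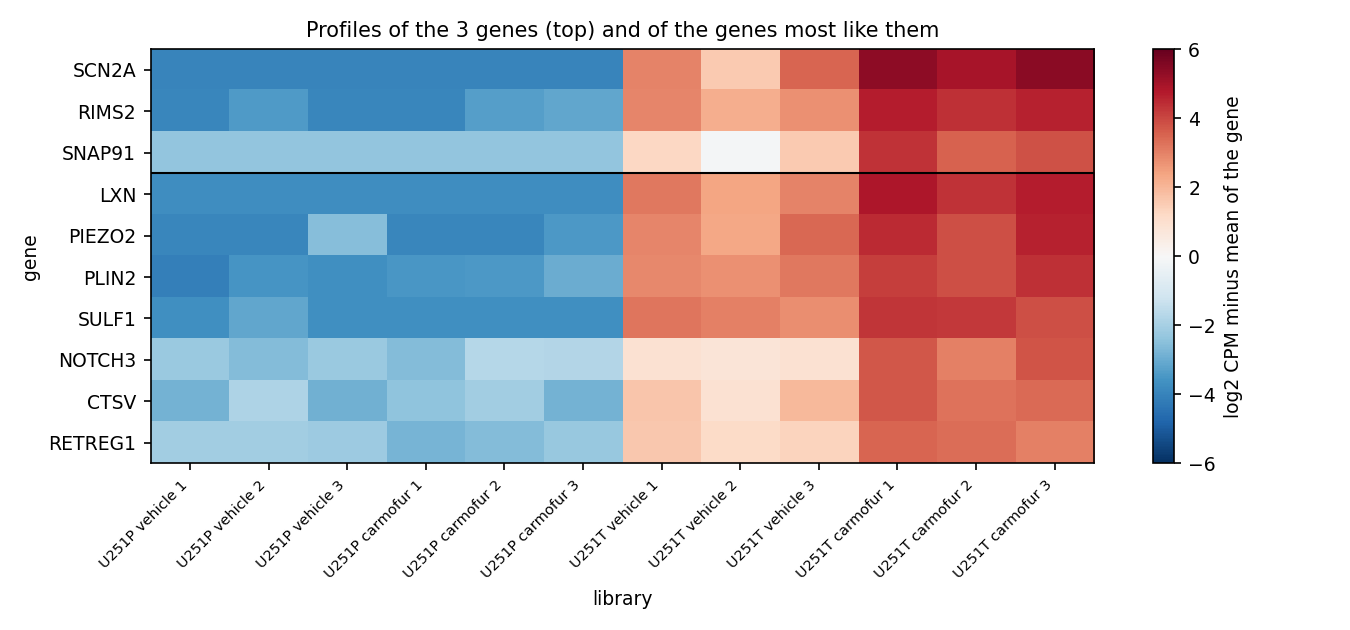
Log2 CPM minus the mean of the gene (colour) for SCN2A, RIMS2 and SNAP91 (top 3 rows) and the genes most like them (rows below), in the 12 libraries (columns). For all 10 genes each U251P library lies below and each U251T carmofur library above the mean of the gene, and vehicle replicate 2 of U251T is the palest of its group for SCN2A, RIMS2 and SNAP91.

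The direction of the 3 fold changes in U251T was the same under each of the 12 alternatives tried, which is a description for genes chosen on this contrast. The log2 fold change ranged from 2.03 to 3.04 for SCN2A, from 1.72 to 2.19 for RIMS2 and from 2.62 to 3.65 for SNAP91. For each gene the lowest value came from the fit without vehicle replicate 2. Within groups the SD of log2 levels was 0.836 for SCN2A, 0.367 for RIMS2 and 0.870 for SNAP91.

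**Figure D4:**
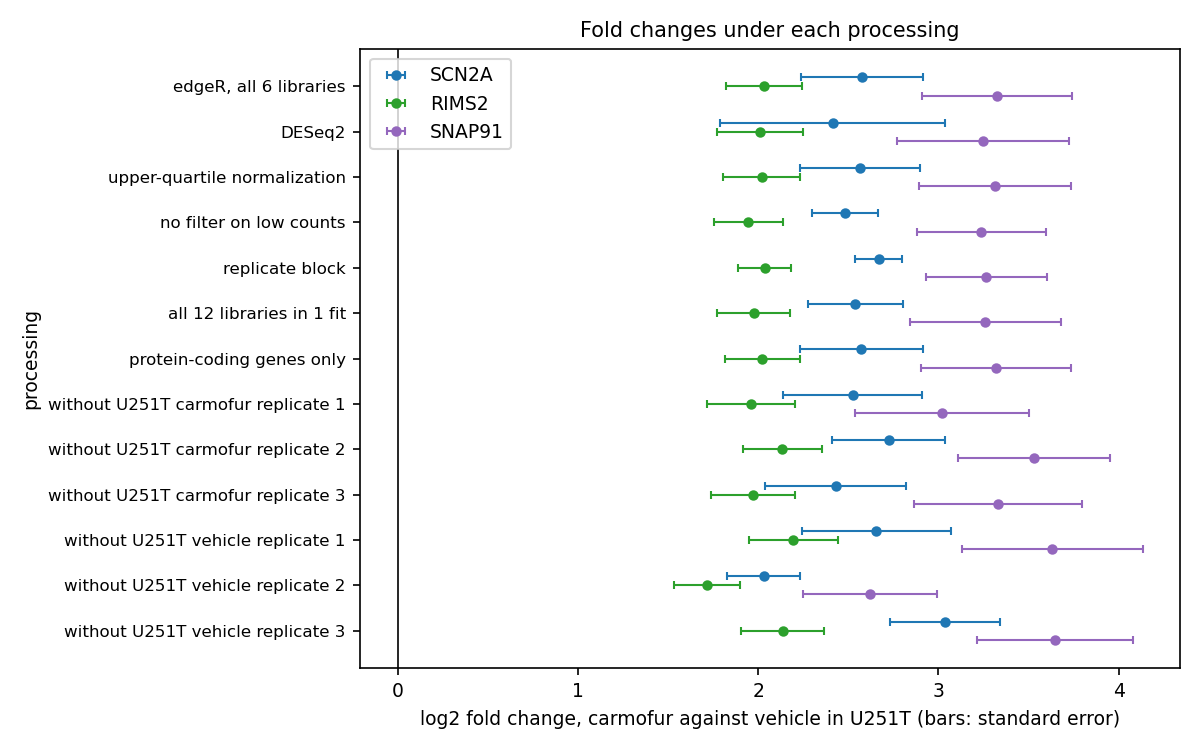
Log2 fold change of carmofur against vehicle in U251T (horizontal axis, bars are standard errors) for SCN2A, RIMS2 and SNAP91 under each way of processing (vertical axis), with the fit on all 6 libraries on top. All values lie above 0, from 1.72 for RIMS2 to 3.65 for SNAP91.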

How the data were processed

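RNA was measured by QuantSeq 3′ FWD libraries, and the authors trimmed and mapped single-end reads with the BlueBee pipeline of Lexogen; per the labels the genome was hg38. The deposited values are whole-number counts per Ensembl gene identifier, not normalized. The counter, annotation release and use of strand or molecular identifiers are not given in the sources used here. All 12 columns were used, with groups from the labels. From the counts, genes passing filterByExpr (10 counts in the median library) were tested within a line with edgeR version 4.0.16 (quasi-likelihood test, TMM, R version 4.3.3), and p-values were adjusted by Benjamini-Hochberg with a threshold of 0.05. CPM used TMM factors within a line. Standard errors of edgeR fits were the absolute log2 fold change divided by the square root of the quasi-likelihood F statistic. Those of the DESeq2 fit were its own. DESeq2 (version 1.42.0) was an alternative, as were upper-quartile normalization, no filter, a replicate block, all 12 libraries in 1 fit and leaving out each library, and protein-coding genes only (chosen after seeing the data). Simulated counts were used to test the procedure. No 2 replicates agreed within sampling noise (chi-square per degree of freedom 1.65 to 10.6). Intervals cover counting error only.

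The members and lists were chosen with earlier results of these data known. Besides the 3 genes, the rule named their relatives and overlapping genes, REST, all markers, up to 4 passing genes per list, direction and line with the smallest p-values, and the 3 genes most like each member. Some genes that this rule allows are not reported here. Exact permutation tests of 3 libraries against 3 cannot go below 0.1 and were not used.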

Additional observations from a re-analysis of the deposited data

How the results depend on the processing

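In U251T 1231 genes passed by edgeR (adjusted p under 0.05), and 2078 with the replicate number as a block. With the block, higher genes went from 13 to 21 in the 6 channel and synapse lists and from 2 to 8 among the clathrin genes. Same-numbered libraries of U251T deviated together with correlations of 0.0853, 0.345 and 0.0841, and those of U251P with 0.250, -0.0188 and 0.314, and vehicle replicate 1 of U251T correlated slightly better with carmofur replicate 3 (0.0944). The numbers were therefore not taken as pairs. The block left the log2 fold changes of SCN2A, RIMS2 and SNAP91 in U251T at 2.67, 2.04 and 3.26. Leaving out 1 library gave 837 to 1195 genes in U251T, and log2 fold changes of 2.03 to 3.04 for SCN2A, 1.72 to 2.19 for RIMS2 and 2.62 to 3.65 for SNAP91. In U251P the count of 0 became 19 of 24349 genes without the filter on low counts, 1 with the replicate block, and 0 to 1 when 1 library was left out (1 without carmofur replicate 3). Between the lines with vehicle, leaving out 1 library gave 10418 to 11028 genes. Of the 384 counts of list genes under alternatives, 364 were within 1.5 times the value reported and 20 were not. The count of higher active zone genes was 1 in place of 2 without carmofur replicate 3 or vehicle replicate 3. SCN2A and SNAP91 had 0 counts in U251P and no alternative could give a value. RIMS2, with 1 vehicle and 4 carmofur counts there, had a log2 fold change of 1.48 without the filter (edgeR adjusted p = 0.844) and 1.35 with all 12 libraries in 1 fit (edgeR adjusted p = 1), and neither passed. Depth limits SNAP91 most, with 25 counts over the 3 vehicle libraries of U251T. The cause of these differences was not tested.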

Other observations

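Markers of astrocytes and glioma moved apart in U251T. VIM, the main intermediate filament protein of these cells, fell with carmofur from 12658 ± 1008 to 7913 ± 846 CPM (SD, n = 3 each), with a log2 fold change of -0.67 (edgeR adjusted p = 0.000493). GFAP, the astrocyte filament protein, had -0.96 (edgeR adjusted p = 0.0216), and its call was lost without carmofur replicate 2 or 3 and without vehicle replicate 1. CD44, the hyaluronan receptor, had 0.39 (edgeR adjusted p = 0.0422), and this call held under 5 of 13 settings and not with DESeq2. Summed over the 11 markers of this list, the level was 12221 to 13992 CPM with vehicle and 8002 to 9706 CPM with carmofur, and in U251P it was 4055 to 4814 CPM over both groups.

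COL1A1, a collagen of fibroblasts, was at 1444 ± 155 CPM in U251T with vehicle and 1902 ± 57.4 CPM with carmofur (SD, n = 3 each). Its log2 fold change was 0.40 (edgeR adjusted p = 0.0285), a call that held under 7 of 13 settings. The call was lost when any carmofur library or vehicle replicate 1 was left out. It was also lost without the filter on low counts and with all 12 libraries in 1 fit. The 7 endothelial and fibroblast markers summed to 1285 to 1570 CPM with vehicle and 1885 to 1990 CPM with carmofur in U251T, and to 5.02 to 8.17 CPM in U251P. Markers of the oligodendrocyte lineage summed to 19.0 to 41.2 CPM and those of microglia to 8.90 to 20.7 CPM in U251T, over both groups.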
